A study of Homo sapiens with 3 samples.

Results

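The SOX4 locus was described at every CpG read on chromosome 6 between positions 21560000 and 21640000 (GRCh37, here and for all positions below), an interval of 80 kb around the single-exon gene at chr6:21593972-21598849. The interval held 317 of the 3225751 CpGs read in the series, and all 317 had at least 1 read in every library. Of these, 277 had at least 10 reads in all 3 libraries and entered the comparisons of methylation, out of 2238764 such CpGs in the genome. Each CpG is placed by its G on the forward strand, and distances are in base pairs from the gene start, negative upstream.

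DNA was measured from Hep3B, a human hepatocellular carcinoma cell line, in 1 library of parental cells and in 1 library from each of a pair of lines made from it, Hep3B SOX4 KO #1 (KO #1) and Hep3B SOX4 KO #2 (KO #2). The labels name the lines as SOX4 knockouts under treatment and describe no edit. The study states that CRISPR/Cas9 made both lines in earlier work, and its methods state that they were grown with puromycin. The sequence targeted is not given in the sources used here. Fragments holding CpGs were captured with the EPIC probe set (TruSeq Methyl Capture EPIC) and treated with bisulfite, after which an unmethylated cytosine is read as T, so a site's methylation level is methylated reads over all reads there. Because the parental group is 1 library, each test below compares libraries and not conditions, and an exact permutation test of the groups could not go below p = 0.333.

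SOX4 is one of the SOX transcription factors, which bind DNA through a high-mobility-group box, and it belongs to the same group as SOX11 and SOX12. It acts in development and is often high in tumours, those of the liver among them. Genes of this kind commonly start in a CpG island, a stretch dense in CpGs that most tissues keep free of methylation, while CpGs outside islands are mostly methylated.

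The stretch just before the gene start is shown because it places the gene's start among the measured CpGs. It is the first 240 bases of RefSeq's SOX4 promoter (GRCh38.p14 table, + strand), and capitals mark its 8 CpGs.
SOX4 promoter: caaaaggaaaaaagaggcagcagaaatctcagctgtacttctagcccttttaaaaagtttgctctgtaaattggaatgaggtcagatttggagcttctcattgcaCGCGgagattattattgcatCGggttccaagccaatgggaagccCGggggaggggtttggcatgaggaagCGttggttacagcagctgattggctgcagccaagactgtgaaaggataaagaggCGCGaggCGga
The spacing of these 8 CpGs was found at 1 place among the CpGs of the deposited files, chr6:21593732-21593971, which ends at the base before the gene start. The letters CCAAT, on either strand, occurred 3 times in it. At least 1 occurrence was found in 31.4% of 35116 RefSeq promoter stretches of this length. The median of those stretches was 10 CpGs, and 55.3% of them held at least 8, so this one is not unusually dense. No gene annotation of GRCh37 was used here, so no gene name is attached to the upstream CpGs described below.

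The promoter stood at or near 0% methylation in parental cells and in both knockout lines. At its first CpG, position -134, 0 of 106 parental reads, 0 of 95 reads of KO #1 and 0 of 142 reads of KO #2 were methylated, which allows levels of up to 2.83%, 3.16% and 2.11%. Over the 8 CpGs the mean level was 0% in parental cells, 0.29% in KO #1 and 1.39% in KO #2. The highest single value was 4.82% in KO #2 at position -3 (4 of 83 reads, 95% exact Clopper-Pearson interval 1.33% to 11.9%), beside 0 of 70 parental reads. No difference from parental cells was called there (Fisher's exact test, adjusted p = 0.967).

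Most measured CpGs of the exon were unmethylated as well. The gene held 137 CpGs from position 61 to position 4702, of which 112 could be compared, and 100 of these stood at 0% in parental cells, 101 in KO #1 and 100 in KO #2. The mean level was 1.59% in parental cells, 2.12% in KO #1 and 1.59% in KO #2, so the knockout mean of 1.85% ± 0.38 (SD, n = 2 lines) lay 0.26 percentage points above the parental value, less than the spread between the lines. No CpG of the gene was called in any of the 3 comparisons, where a call needed a difference of 25 percentage points or more with an adjusted p under 0.05. Unadjusted p-values under 0.05 were found at 2 of the 112 CpGs in each comparison, against 12.8% of all CpGs tested in KO #1 against parental, 7.6% in KO #2 against parental and 8.27% in KO #1 against KO #2. Where neither library of a pair had a methylated read, the test could not give a low p. The counts in the gene are therefore not comparable with those shares.

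Most measured CpGs inside the exon fell into 4 CpG-dense blocks, runs of at least 20 CpGs no more than 100 bp apart, at positions 651 to 1232, 1942 to 2159, 2363 to 2631 and 2735 to 3084. Their mean levels ran from 0% to 0.45% in the 3 libraries. The first and last CpGs of these 4 blocks were at 0% in all libraries, except position 1232 at 4.55% in parental cells (22 reads) and position 2735 at 1.56% in parental cells and 2.38% in KO #2. At position 651 the 0% rests on 1 parental read and on few reads of the knockout lines, so it fixes no level. No CpG was read in a stretch of 401 bp after position 250, of 710 bp after position 1232 and of 1540 bp after position 3084.

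The last 3 measured CpGs of the gene were the exception. At position 4624 the level was 48.1% in parental cells (54 reads), 72.7% in KO #1 (44 reads) and 59.6% in KO #2 (57 reads). At position 4647, the most methylated CpG of the gene in each library, it was 54.2% of 48 parental reads, 83.3% of 42 reads of KO #1 and 63.2% of 57 reads of KO #2. At position 4702 it was 45.8%, 59.1% and 29.4% of 24, 22 and 34 reads. KO #1 was the highest at each of the 3, but its largest difference from parental cells, 29.2 percentage points at position 4647, missed the threshold (Fisher's exact test, adjusted p = 0.0563).

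**Figure D1:**
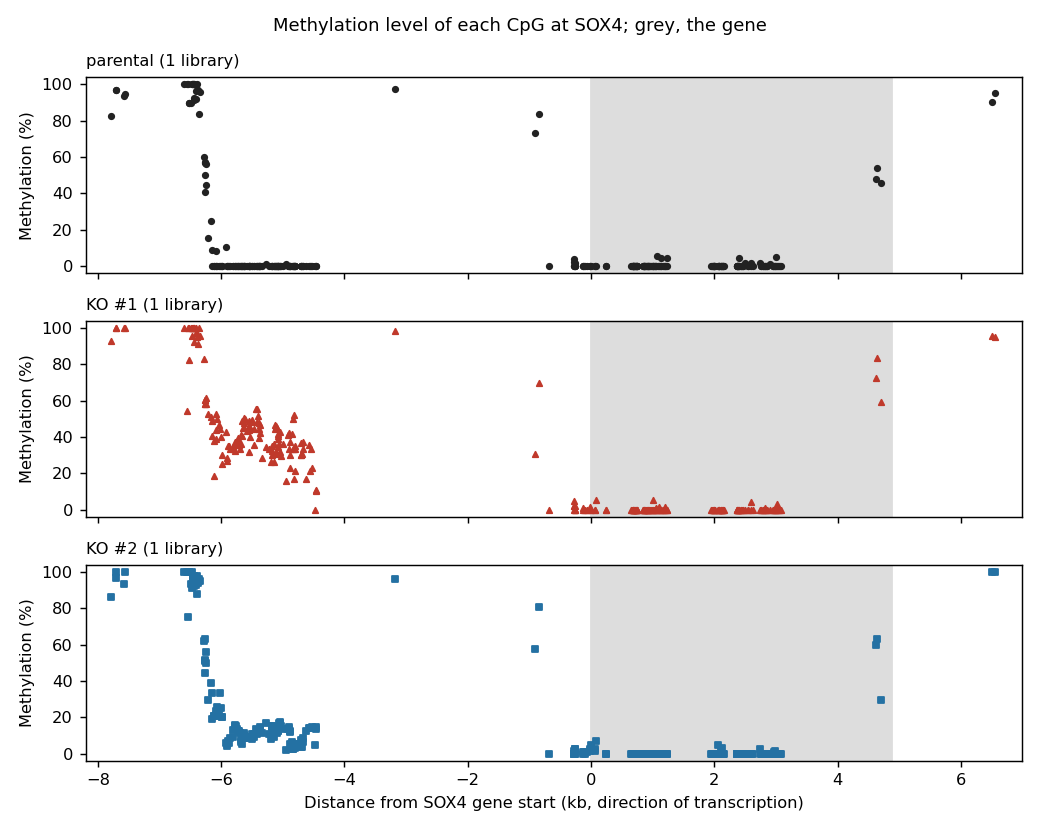
Methylation level (%) of each CpG read, at any coverage, against distance from the SOX4 gene start (kb), in parental cells, KO #1 and KO #2; each point is 1 CpG and the grey band is the gene. The CpGs at the start of the gene and most of those in the exon sit at or near 0% in each panel, while the last 93 CpGs of the upstream block have mean levels of 0.02% in the parental panel, 36.8% in KO #1 and 10.7% in KO #2. The CpGs from 14993 bp on are not drawn.

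The difference between the libraries lay upstream of the gene. A CpG-dense block of 142 CpGs at chr6:21587372-21589513, positions -6600 to -4459, had a mean level of 14.0% in parental cells, 45.4% in KO #1 and 23.6% in KO #2 over 132 compared CpGs. KO #1 stood 31.4 percentage points above parental cells and KO #2 stood 9.61 above them. The knockout mean was 34.5% ± 15.4 (SD, n = 2 lines), and KO #1 exceeded KO #2 by 21.8 percentage points, more than KO #2 exceeded parental cells. Of the 132 CpGs, 124 were higher in KO #1 than in parental cells, 121 were higher in KO #2, and in 113 the level of KO #2 lay between the other two.

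Within this block, 95 of 132 CpGs were called higher in KO #1 than in parental cells, against a background of 0.599% of the 2238764 CpGs tested, and 0 were called lower (background 4.46%). These 95 were all the CpGs called higher in the interval and lay between positions -6205 and -4534. In KO #2, 0 CpGs of the interval were called higher (background 0.0831%) and 0 lower (background 0.713%), while 80 of the 132 had an unadjusted Fisher p under 0.05 (background 7.6%, either direction). With the difference required lowered to 10 percentage points, 30 CpGs of the interval were called higher in KO #2 (background 0.12%). Directly between the lines, 38 CpGs were higher in KO #1 than in KO #2 (background 0.184%) and 0 were lower (background 1.07%). Neighbouring CpGs are read from the same fragments, so these counts are not counts of independent sites.

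The block was not uniform. Its first CpG, position -6600, was fully methylated but on 1, 2 and 4 reads. Its outer edge, positions -6600 to -6357, was methylated in every library, with means of 94.3% in parental cells, 96.9% in KO #1 and 95.6% in KO #2 over 14 CpGs. The next step of 250 bp, positions -6343 to -6108, was the transition, with 36.4%, 56.0% and 45.3%. Beyond it the libraries parted. Over the 93 CpGs from position -5814 to the end of the block, a stretch delimited after its values were seen, the mean was 0.02% in parental cells, 36.8% in KO #1 and 10.7% in KO #2, and 91 of the 93 were at 0% in parental cells. By steps of 250 bp over that stretch the mean ran from 19.3% to 45.4% in KO #1 and from 5.30% to 12.9% in KO #2, with its lowest value in KO #1 at the end nearest the gene.

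The 20 CpGs with the largest rises in KO #1 rose by 45.9 to 55.2 percentage points and were all at 0% in parental cells. At position -5424 (21588548), the largest rise in the interval, 0 of 84 parental reads were methylated, which allows up to 3.57%, against 37 of 67 reads of KO #1 (55.2%, 95% interval 42.6% to 67.4%) and 14 of 109 reads of KO #2 (12.8%, 7.20% to 20.6%). The 3 intervals did not overlap, the parental one ending at 4.30%. The adjusted p of Fisher's exact test was 3.14e-14 for KO #1 against parental, 0.0351 for KO #2 against parental and 4.38e-06 for KO #1 against KO #2. The difference of KO #2 from parental cells, 12.8 percentage points, was below the 25 that a call required. At position -5108 the levels were 0% of 81 parental reads, 46.2% of 52 reads of KO #1 and 13.7% of 73 reads of KO #2. At position -4825 they were 0% of 33, 52.4% of 21 and 4.88% of 41 reads, with an adjusted p of 1 for KO #2 against parental cells (Fisher's exact test). At the last CpG of the block, position -4459, they were 0% of 14, 11.1% of 18 and 14.7% of 34 reads, with no difference called.

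**Figure D2:**
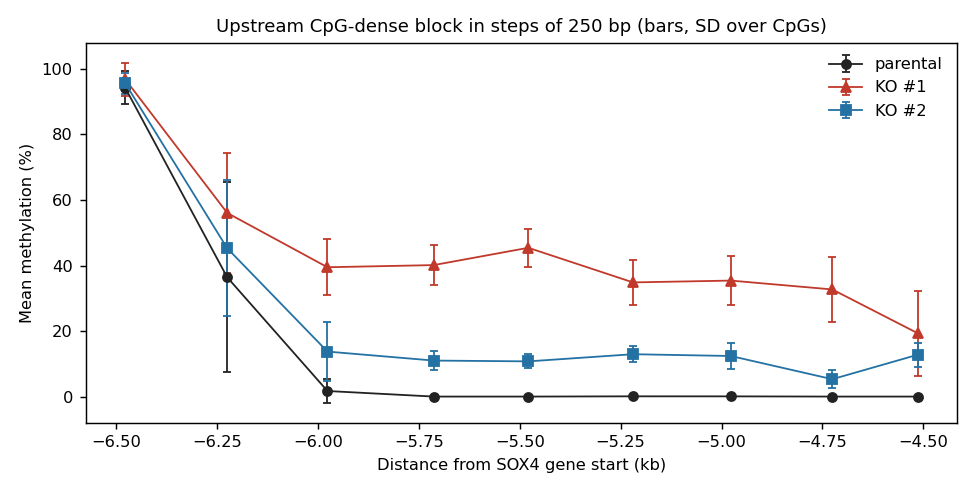
Mean methylation (%) of the upstream CpG-dense block in steps of 250 bp against distance from the SOX4 gene start (kb); points are means over the compared CpGs of 1 library and bars are the SD over those CpGs, not over replicates. The 3 libraries start together at 94.3% to 96.9%, and from about -6 kb the parental points stay under 2%, those of KO #2 between 5.30% and 13.7%, and those of KO #1 between 19.3% and 45.4%.

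The same block was set beside all CpG-dense blocks of the genome, 24675 with at least 20 compared CpGs. A rise of at least 25 percentage points against parental cells was found in 32 of them in KO #1 (0.13%), the SOX4 block among them in place 18. In KO #2 a rise of this size was found in 3 blocks (0.0122%), and the rise of the SOX4 block came in place 98. KO #1 exceeded KO #2 by at least 25 percentage points in 6 blocks (0.0243%), and the SOX4 block, at 21.8, was not among them. The median change over all blocks was -0.44 percentage points in KO #1 and -0.27 in KO #2. This ranking was added after the block had been seen.

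Read depth also differed in this block. The read dosage, the reads of a region as a share of the library's CpG reads divided by the same share in parental cells, was 0.77 in KO #1 and 0.88 in KO #2 over the block. It was 1.77 and 1.60 at the methylated outer edge, 0.67 and 0.72 at positions -6090 to -5864, where KO #2 was lowest among the steps of 250 bp, and 0.57 and 0.79 at positions -5814 to -5613, where KO #1 was lowest. Tested CpG by CpG (exact binomial test, at least 40 reads in the pair), 5 CpGs were called at or below 0.5 in KO #1 (background 0.641%), all in this block, and 0 at or above 2 (background 0.647%). The strongest was position -5673, with 116 parental reads, 44 reads of KO #1 and 98 reads of KO #2 (dosage 0.41 in KO #1, exact binomial test, adjusted p = 0.000128). In KO #2, 0 CpGs were called low (background 0.211%) and 0 high (background 0.182%), and between the lines 0 were called in either direction (backgrounds 0.138% and 0.139%). The 5 lowest dosages in KO #2 ran from 0.47 to 0.52 and the 5 highest from 2.62 to 3.06, the latter at the outer edge with 9 to 12 parental reads each. With each CpG thinned to the smallest depth of the 3 libraries, 82 CpGs of the interval were called higher in KO #1 (background 0.43%). Whether the lower dosage and the higher level belong to the same fragments was not tested.

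**Figure D3:**
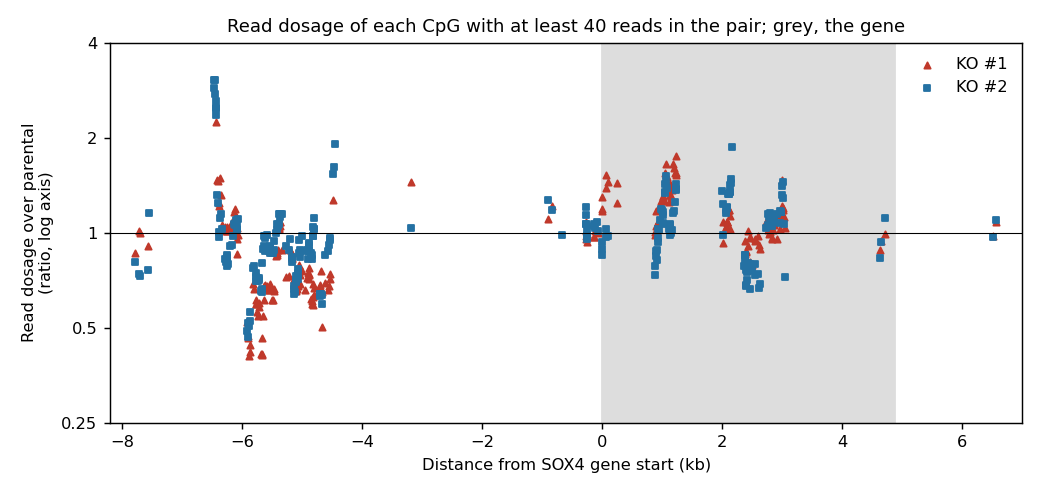
Read dosage over parental (ratio, log axis) of each CpG with at least 40 reads in the pair, against distance from the SOX4 gene start (kb), for KO #1 and KO #2; each point is 1 CpG and the grey band is the gene. Points over the gene run from 0.76 to 1.75 in KO #1 and from 0.66 to 1.87 in KO #2. Those of KO #2 at 2363 to 2631 bp run from 0.66 to 0.85. The lowest points of KO #1, near 0.41, and the highest of KO #2, at 3.06, lie in the upstream block.

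Between the block and the promoter few CpGs were read. At position -3187 the level was 97.6% in parental cells, 98.2% in KO #1 and 96.3% in KO #2. In the whole interval 1 CpG was called lower in KO #1, against a background of 4.46% of all CpGs tested. It was at position -913 (21593059), with 73.2% of 41 parental reads, 31.0% of 42 reads of KO #1 and 57.6% of 66 reads of KO #2. In KO #1 the level fell by 42.2 percentage points (Fisher's exact test, adjusted p = 0.00486), while KO #2 was not called against parental cells (Fisher's exact test, adjusted p = 1). At its neighbour, position -842, the levels were 83.5%, 69.7% and 80.7% of 79, 89 and 119 reads, with no call. At position -676 they were 0% in all 3 libraries, on 24, 11 and 30 reads, so the change from methylated to unmethylated on the side of the promoter lay between -842 and -676 in each library.

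Downstream of the gene, methylation was high at most CpGs and none was called. The 5 kb downstream held 2 compared CpGs and the stretch beyond it 6. An unadjusted Fisher p under 0.05 was found at 2 of them in KO #2 (background 7.6%) and 0 in KO #1 (background 12.8%). These are too few CpGs to set against such shares. At position 6514 the level was 90.2% in parental cells, 95.7% in KO #1 and 100% in KO #2. The 7 CpGs from position 14993 to 22524 stood between 78.9% and 100% in all libraries, on 6 to 46 reads. The last 2 CpGs of the interval were lower. At position 41005 the level was 32.1% of 56 parental reads, 51.4% of 37 reads of KO #1 and 52.4% of 63 reads of KO #2 (Fisher's exact test, adjusted p = 0.549 and 0.498), and at position 41035 it was 10.3%, 20% and 22.5%.

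Over the gene as a whole, no loss of reads was seen in either knockout line. Its CpGs held 5758 parental reads, 6032 reads of KO #1 and 7685 reads of KO #2, a dosage of 1.13 in KO #1 and 1.05 in KO #2. For comparison, chromosome 6 as a whole stood at 0.979 and 0.995, and windows of 1 kb in the interval ranged from 0.69 to 1.42 in KO #1 and from 0.79 to 1.19 in KO #2. The highest window of both lines, chr6:21595001-21596000, lies within the gene, so the range is not one of the flanks alone. Along the gene the dosage was not even. The block at positions 651 to 1232 stood at 1.32 in KO #1 and 1.12 in KO #2, and that at 2363 to 2631 at 0.89 and 0.75. In KO #2 every CpG of the latter block lay between 0.66 and 0.85. No CpG of the gene was called for dosage. The highest dosages of KO #1 in the gene, 1.61 to 1.75, were found between positions 1068 and 1225 and did not pass the test, the lowest adjusted p among them being 0.112.

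A gap in the reads of the knockout lines was seen at a few bases inside the exon. At position 866 (21594838) there were 20 parental reads, 4 reads of KO #1 and 11 reads of KO #2. The CpG 3 bp before it, at position 863, had 19, 19 and 18 reads, and the CpG 6 bp after it, at position 872, had 22, 20 and 22 reads. A second step lay just before, where position 859 had 19, 19 and 18 reads but position 853 had 18, 4 and 8, position 845 had 16, 4 and 8, and position 842 had 14, 4 and 8. KO #1 was thus lowest and KO #2 lay between it and parental cells at each of these 4 CpGs, while the parental reads changed smoothly.

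**Figure D4:**
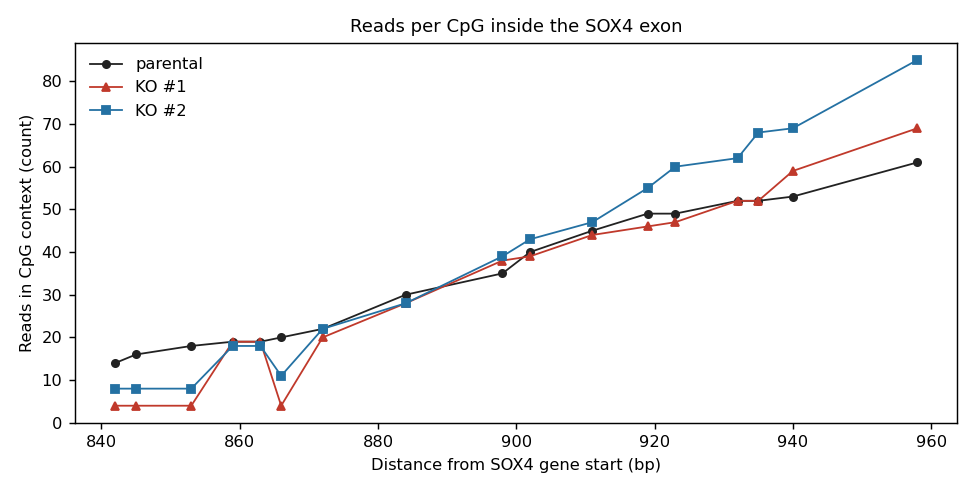
Reads in CpG context (count) at each CpG from 842 to 958 bp after the SOX4 gene start, in parental cells and KO #1 and KO #2; each point is 1 CpG and the lines only join the points. The parental curve rises without a break from 14 to 61 reads, whereas KO #1 drops from 19 to 4 and KO #2 from 18 to 11 reads at 866 bp, and both are low at 842 to 853 bp.

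The size of this gap was measured against the CpGs beside it, in a comparison added after the gap was seen. For a CpG with a neighbour within 10 bp on each side, a mean of at least 15 reads in the neighbours and a parental ratio of at least 0.8, the reads were divided by the mean of its neighbours. The ratio at position 866 was 0.98 in parental cells, 0.21 in KO #1 and 0.55 in KO #2. The other CpGs of the interval that could be measured so, of 79 in all, ran from 0.92 to 1.09 in KO #1 and from 0.85 to 1.13 in KO #2. Of 342777 such CpGs in the genome, 1 was at or below the value of KO #1, which is position 866 itself (0.000292%), and the same held for both lines together. For KO #2 alone, 5 were at or below its value. Position 866 was picked as the lowest of the interval in KO #1, so its rank is a description and not a test. The parental minimum leaves out CpGs that are low in parental cells, so gaps in that direction were not counted. The step from position 853 to 859 was compared with pairs of CpGs within 10 bp whose second CpG had at least 15 reads in every library and whose parental ratio was at least 0.8. Reads at 853 were 0.95 of those at 859 in parental cells, 0.21 in KO #1 and 0.44 in KO #2. Of 659309 such pairs, 3 were at or below the value of KO #1 (0.000455%), 2 of them in SOX4. These 2 are the step itself and the pair of position 866 with the CpG after it, already ranked above. At or below the value of KO #2 were 7 pairs, and 2 pairs were so in both lines. The pair of position 866 was above the value of KO #2, so the other pair low in both lines lay outside the interval.

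At these depths the gap did not pass the test of read dosage against the library totals. Position 866 had fewer than 40 reads in each pair and was not tested under that minimum. With a minimum of 20 reads, the unadjusted exact binomial p was 0.00284 in KO #1 and 0.0346 in KO #2, and the adjusted p was 0.110 and 0.403. All reads at the 4 CpGs were unmethylated, and no read there had lost the CpG context in either line. Over the interval, 4 parental reads, 8 reads of KO #1 and 4 reads of KO #2 were out of context, and 0 CpGs were called for it in any comparison (backgrounds 0.00665%, 0.00665% and 0.00651%). The files hold counts at CpGs only, so an edit of the bases was not seen directly, and its part in the gap was not tested. Just before it, from position 651 to 749, parental cells had 1 read at each of 19 CpGs, KO #1 had 3 to 5 and KO #2 had 5, too few to measure a gap.

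Depth set what could be seen. The libraries held 104702738 (parental), 96987706 (KO #1) and 133170621 (KO #2) CpG reads, and the median CpG of the interval had 49, 43 and 59 reads, against 22, 20 and 27 over the genome. Nearly all reads of the interval were counted on the reverse strand, the forward strand giving 23, 0 and 13 reads. Reads amplified by PCR without molecular identifiers are not independent molecules, so intervals and limits cover counting error only.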

How the data were processed

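Hep3B DNA from 1 parental and 2 knockout libraries was analysed. The deposited tables list, per CpG cytosine and strand, counts of total, CpG-context and methylated reads (no normalization) and a methylation level, a fraction the authors obtained from methylated over context reads. The build is GRCh37/hg19 per the submitters' processing notes; aligner, caller, filters and duplicate removal are not given in the sources used here. Strands were summed. CpGs reaching 10 reads in each library were compared by 2-sided Fisher's exact tests, and read dosage by exact binomial tests, adjusted by Benjamini-Hochberg across the genome's tested CpGs. Flanks were 5 kb. CpGs were named from those called, the ends of each block, the highest in the gene and the extremes of dosage, and, chosen after their values were seen, those at the gap, at the interval's edges and at -5108. Members and lists were chosen with earlier results of these data known. Both tests were checked on simulated data. Tools were scipy 1.17.1, numpy 2.4.6, numba 0.67.0, pandas 2.3.3 and matplotlib 3.10.9 under Python 3.11.15.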

Additional observations from a re-analysis of the deposited data

How the results depend on the processing

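Of 138 values recomputed for 24 results under other settings, 126 stayed within 1.5 times the count or within the spread between the lines. This tally overstates stability, because a value without 1 of 2 lines always stays within their SD. It also includes counts of 0 that stayed at 0. Changes of sign were not scored. With 50 percentage points required, the counts of CpGs called fell to 8 higher (0.191% of all CpGs tested) and 0 lower (1.69%) in KO #1, and to 0 higher in KO #1 against KO #2 (0.0398%). With 10 percentage points, 30 were called higher in KO #2 (0.12%). Against the totals of the interval, 3 CpGs were called low in dosage in KO #1. The share over all CpGs was not counted under this setting, so that count has no background. Against the same totals the gene's mean dosage was 1.16 and that of the 5 kb downstream 1.09, which was 1.04 against chromosome 6 totals. The mean difference more than 5 kb downstream was 5.32 percentage points in the main setting. It was 0.94 with CpGs of at least 1 or 5 reads, and 8.56 with reads pooled. That of the upstream flank changed sign, from 10.8 to -1.56 with a flank of 2 kb, which leaves out the block. That of the gene changed from 0.26 to -0.00485 without KO #1. Leaving out either knockout line gave 9.65 to 30.7 percentage points more than 5 kb upstream, 4.76 to 16.8 in the 5 kb upstream, -0.00485 to 0.53 in the gene, 7.23 and 2.73 in the 5 kb downstream and 3.19 to 7.44 beyond it, and dosages of 0.78 to 0.88, 0.87 to 0.96, 1.05 to 1.13, 1.02 to 1.03 and 0.92 to 1.17 in the same order. No paired analysis was possible because only 1 parental sample was sequenced. The ratio to neighbours, chosen after seeing the data, left position 866 as the 1 lowest CpG in KO #1 also with neighbours within 20 or 30 bp or with 10 reads. The same parental minimum was kept in each. The planned comparison with promoters of other genes was not run, since no annotation of GRCh37 was used.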
